A study of Mus musculus with 6 samples.

Results

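Aminoacyl-tRNA synthetases were examined in 4T1 cells, a mouse mammary carcinoma line, after treatment with P3FI-90, an inhibitor of the histone demethylase KDM3B. The 41 genes were chosen by a rule on names, with earlier results of these data known, from 22401 rows of the count table. They comprised 19 enzymes of the cytosol, 17 enzymes of mitochondria, 2 enzymes that serve both compartments and 3 partner proteins that carry no charging activity. All 41 passed the filter on low counts that left 12288 genes for testing. The groups were 4T1 cells given DMSO, the vehicle, and 4T1 cells given 10 µM P3FI-90, both for 24 h, with 3 RNA-seq libraries in each. Each group is thus a single established line at a single dose and time, and the labels do not say whether its libraries came from separate cultures, so the p-values measure only the spread between these libraries.

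A synthetase joins an amino acid to its matching tRNAs, and the charged tRNA then delivers it to the ribosome. Cytosolic protein synthesis and the ribosome of mitochondria mostly use separate enzymes, which are all encoded in the nucleus, and the mitochondrial enzyme of an amino acid usually carries the suffix 2. In the cytosol several synthetases are held together with the proteins Aimp1, Aimp2 and Eef1e1 in the multisynthetase complex. Many cytosolic synthetase genes are known targets of the transcription factor ATF4 in the response to amino acid shortage and other stress.

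The libraries held between 31327094 and 37395732 counts on named genes. P3FI-90 changed a large part of the transcriptome, with 79.3% of the genes tested passing an adjusted p of 0.05 in edgeR's quasi-likelihood test, 39.9% higher and 39.4% lower. Of the 8 epithelial markers examined, all were detected and all were lower with P3FI-90, their sum lying between 4476 and 4719 CPM (counts scaled to library size) in DMSO and between 1917 and 2014 CPM in P3FI-90. The 6 leukocyte markers summed to 0.873 to 1.82 CPM in DMSO and 3.84 to 4.03 CPM in P3FI-90, with Adgre1 at 0 and Csf1r, which rose from 41.5 to 121 normalized counts, making up most of the difference. The 7 stromal and endothelial markers summed to 40.6 to 41.3 CPM in DMSO and 29.1 to 32.0 CPM in P3FI-90, mostly from Pdgfra, which fell from 1355 to 958 normalized counts, while Pecam1 was called higher (4.42 and 20.1 normalized counts). The part of these shifts in the results on synthetases was not tested. In such bulk samples fewer cells of a type and less RNA per cell cannot be told apart. Kdm3b, whose protein the compound targets, had 2851 ± 67.4 normalized counts in DMSO and 3109 ± 55.7 in P3FI-90 (SD, n = 3 each), which does not check the treatment because the compound acts on the protein.

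With TMM scaling of the libraries, decreases outnumbered increases among the synthetases and partners, and most changes were small. Of the 41 genes, 4 were higher with P3FI-90, 23 were lower and 14 did not pass the test. Scaled by total count alone, 18 were higher and 17 lower, so decreases no longer outnumbered increases among the members. Of all genes 50.3% were then higher and 29.6% lower. The median log2 fold change in that scaling was 0.011 for the members, beside 0.23 over all genes tested. With TMM the lower genes were 56.1% of the members, beside 39.4% of all genes, and the higher genes were 9.76%, beside 39.9%. The median log2 fold change was -0.20, beside 0.01 over all genes tested, both with TMM scaling. A change that passed the test and exceeded 1 on the log2 scale was found in 3 members (7.32%), all mitochondrial enzymes and among them Pars2 and Aars2, whereas 23.3% of all genes had such a change. The normalized counts of the groups did not overlap in 31 members (75.6%, beside 81.2% of all genes), 6 with P3FI-90 above and 25 with P3FI-90 below, where all genes had 41.0% and 40.2%.

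**Figure D1:**
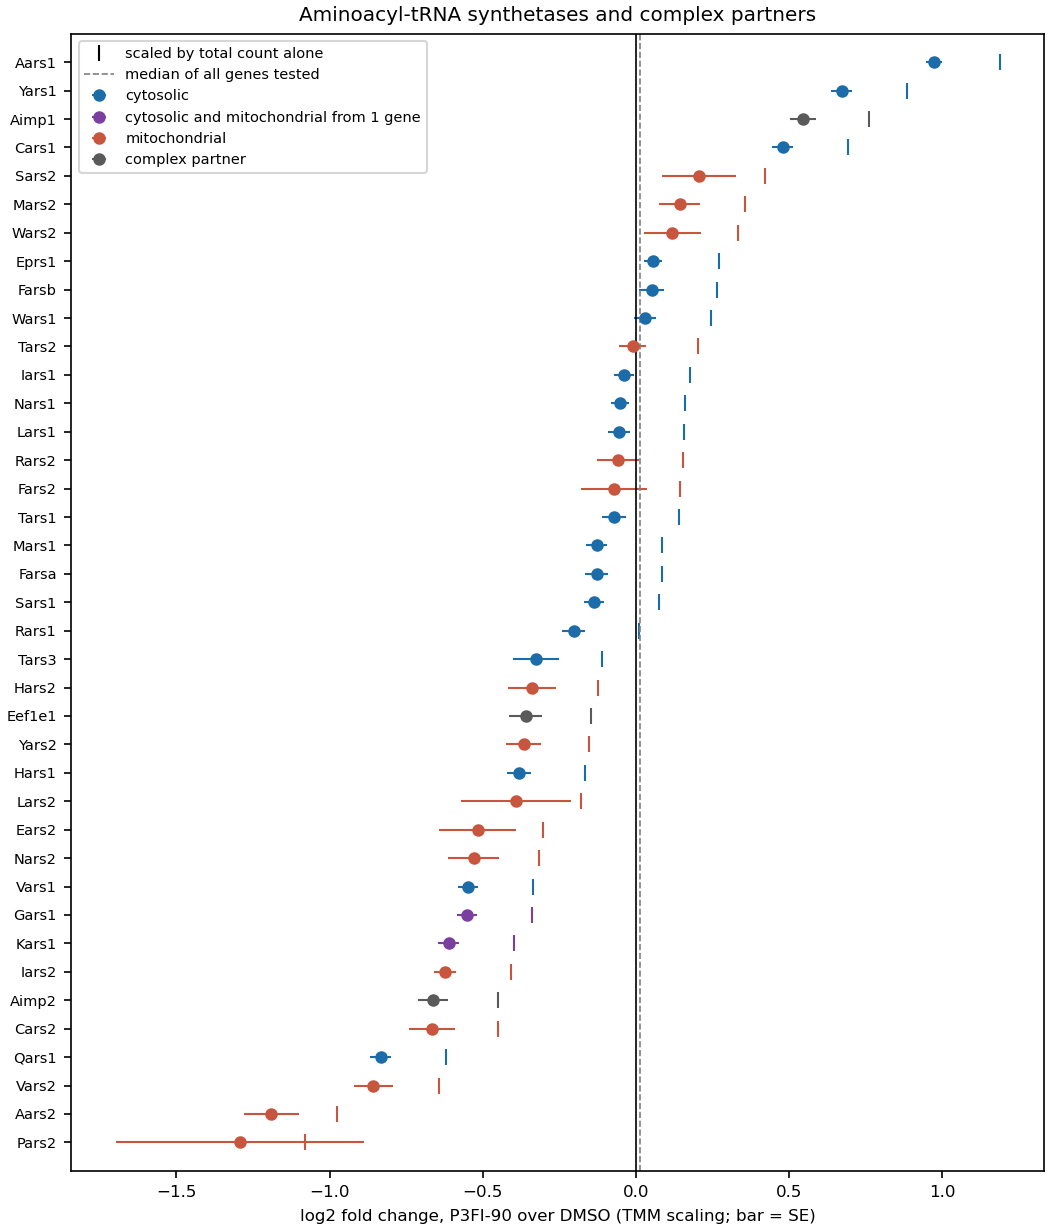
The log2 fold change (P3FI-90 over DMSO) of 39 of the 41 genes with TMM scaling (points, with the standard error as bars, coloured by compartment) and with scaling by total count alone (vertical ticks), ordered by size, with the median of all genes tested as a dashed line. With TMM scaling the cytosolic enzymes drawn lie between -0.83 and 0.97 and the mitochondrial enzymes drawn between -1.29 and 0.21.

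Of the 19 cytosolic enzymes, Aars1, Yars1 and Cars1 rose, 9 fell and 7 did not pass the test, with a median log2 fold change of -0.07. The share that rose was 15.8%, beside 39.9% of all genes, and the share that fell was 47.4%, beside 39.4%. Aars1, the alanyl-tRNA synthetase, had 19747, 19063 and 19152 normalized counts in the DMSO libraries and 37939, 37997 and 37893 in the P3FI-90 libraries. All 3 treated libraries lay far above the controls, a rise of 1.96-fold (log2 fold change 0.97, SE 0.027, edgeR adjusted p = 6.52e-13). Yars1, the tyrosyl-tRNA synthetase, had 5721, 5593 and 5407 normalized counts in DMSO and 8768, 8828 and 9056 in P3FI-90. Its groups did not overlap either, and its log2 fold change was 0.67 (SE 0.035, edgeR adjusted p = 3.44e-10). Cars1, the cysteinyl-tRNA synthetase, had 5145, 4915 and 5139 normalized counts in DMSO and 7062, 7061 and 7081 in P3FI-90. The treated libraries of Cars1 were close to each other and all above the controls (log2 fold change 0.48, SE 0.034, edgeR adjusted p = 1.04e-08).

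The largest decrease in the cytosol was that of Qars1, the glutaminyl-tRNA synthetase, which belongs to the multisynthetase complex. It had 7586, 7879 and 7882 normalized counts in DMSO and 4302, 4406 and 4400 in P3FI-90. Every treated library was below every control, with a log2 fold change of -0.83 (SE 0.034, edgeR adjusted p = 2.94e-11). Vars1 (-0.55) and Hars1 (-0.38), which charge valine and histidine tRNAs, fell by less. Tars3 (-0.33), a second cytosolic threonyl-tRNA synthetase, fell too, as did Rars1 (-0.20), Sars1 (-0.14), Farsa (-0.13) and Mars1 (-0.13). Farsa is the alpha subunit of phenylalanyl-tRNA synthetase, and its partner Farsb, the beta subunit, did not pass the test (0.05, edgeR adjusted p = 0.261). The other enzymes that did not pass had log2 fold changes of 0.06 (Eprs1, the fused glutamyl-prolyl enzyme), 0.03 (Wars1), -0.04 (Iars1), -0.05 (Nars1), -0.06 (Lars1) and -0.07 (Tars1).

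The direction of these small cytosolic changes depended on how the libraries were scaled. TMM scaling gave normalization factors with a median of 0.929 in DMSO and 1.08 in P3FI-90, and scaling by total count alone moved the median of all genes up by 0.21 on the log2 scale. With total counts, 13 cytosolic enzymes were called higher and 4 lower, beside 50.3% and 29.6% of all genes, where TMM gave 3 and 9. Sars1, Farsa and Mars1 then passed the test in the other direction. Aars1, Yars1 and Cars1 remained higher and Qars1, Vars1 and Hars1 remained lower under both scalings.

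**Figure D2:**
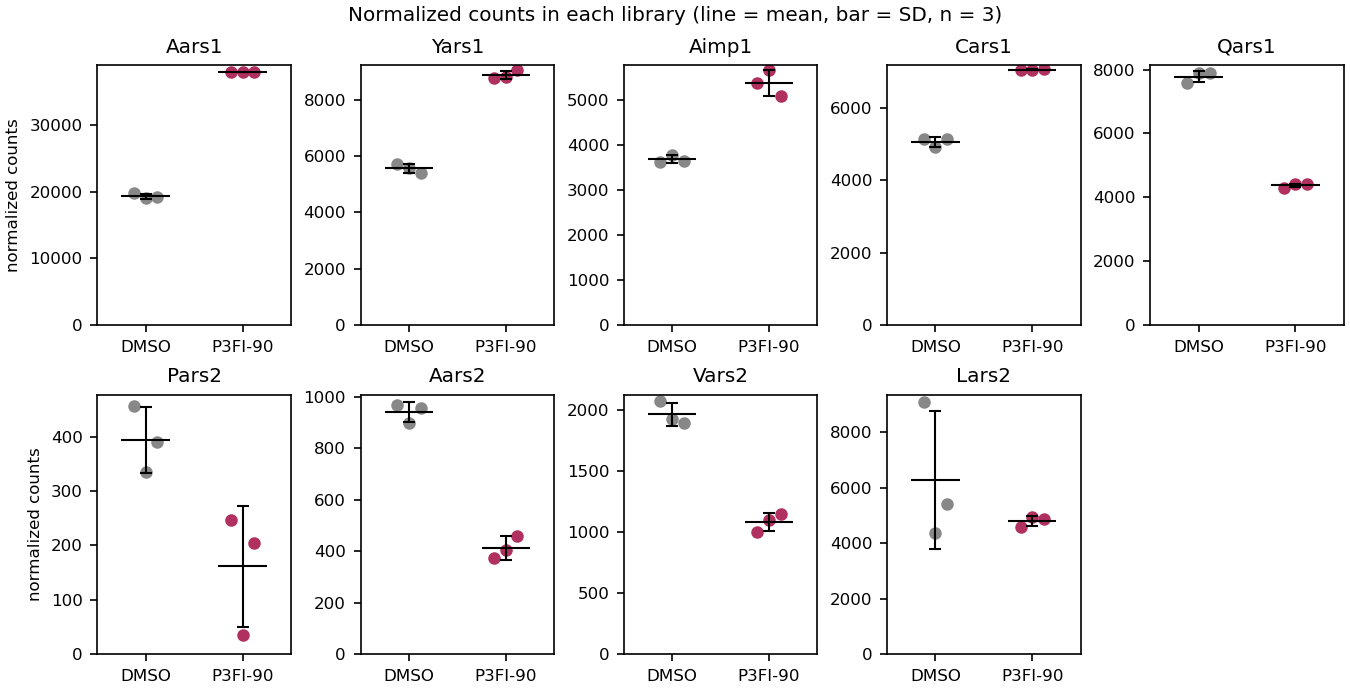
Normalized counts of 9 genes in each of the 3 DMSO and the 3 P3FI-90 libraries, a point per library, with the mean as a line and the SD as a bar, each gene on its own axis from 0. In Aars1, Yars1, Cars1 and Aimp1 the P3FI-90 libraries lie above DMSO, in Aars2, Vars2 and Qars1 they lie below it, in Pars2 P3FI-90 library 2 stands apart at 35.1, and in Lars2 DMSO library 1 stands apart at 9098.

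The promoters of the synthetases were read for short motifs, since ATF4 acts with C/EBP proteins at a composite element whose core reads TGATGNAA. RefSeq promoter windows from 250 bases before to 50 after the annotated start (GRCm38.p6) were matched for 31 of the 41 genes. Those not matched included Cars1, Hars1, Hars2, Lars1, Nars1, Pars2, Rars1, Vars1 and Wars1. A gene with several windows was counted once. The core was found on either strand in 4 of 12 cytosolic genes (Aars1, Yars1, Iars1 and Tars1) and in 1 of 2 dual enzymes (Gars1). It was found in 0 of 14 mitochondrial genes and in 0 of 3 partners, beside 4.51% of 27025 genes. The following stretches of 30 bases each show a match in these genes, with the 8 letters of the core in capitals. In each of them but that of Yars1 the core lies on the strand opposite to the gene and so appears as its reverse complement. They are given 5′ to 3′ on the strand of the gene, and Tars1 is on the minus strand and the others on the plus strand.
Aars1, chr8:111033840-111033869: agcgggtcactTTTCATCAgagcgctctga
Yars1, chr4:129189895-129189924: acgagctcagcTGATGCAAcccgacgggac
Iars1, chr13:49682126-49682155: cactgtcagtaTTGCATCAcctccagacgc
Tars1, chr15:11399655-11399684: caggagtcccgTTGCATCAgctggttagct
Gars1, chr6:55037960-55037989: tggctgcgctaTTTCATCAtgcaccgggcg

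The 5 genes with a match differed in direction. Aars1 and Yars1 rose, Gars1 fell, and Iars1 and Tars1 did not pass the test. The E-box CACGTG, a site for MYC and related factors, was found in 5 of the 31 genes (Aars1, Ears2, Farsb, Iars1 and Tars1), beside 8.09% of all genes with a window. The ETS motif CCGGAAG was in 11 of the 31 genes beside 9.93% of all genes with a window. CCAAT was in 16 beside 41.1%, and the palindromic NRF1 motif in 0 beside 1.07%. A match describes the letters of the reference and no binding was measured here.

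Eprs1, Iars1, Lars1, Qars1, Mars1, Kars1 and Rars1 are among the 8 enzymes of the multisynthetase complex. Of these 8, 0 rose and 5 fell (62.5%) by edgeR's quasi-likelihood test, where 39.9% of all genes rose and 39.4% fell. At an unadjusted p of 0.05 in that test 0 of the 8 were higher too, and their median log2 fold change was -0.16. DESeq2 called Eprs1 higher (log2 fold change 0.07, adjusted p = 0.0235), and limma-voom called none of the 8 higher. With total counts as the scaling Eprs1, Iars1, Lars1 and Mars1 were called higher by edgeR, as were 50.3% of all genes. The 13 cytosolic and dual enzymes outside the complex had 3 higher (23.1%), 6 lower (46.2%) and a median of -0.07. The difference between complex and free enzymes was not tested. By the fold of the catalytic domain, the 19 enzymes of class I had 2 higher (10.5%) and 9 lower (47.4%), with a median of -0.13. The 19 of class II had 1 higher (5.26%) and 12 lower (63.2%), with a median of -0.33.

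The partners of the complex moved in different directions. Aimp1, the scaffold protein that is also the precursor of a secreted cytokine, had 3623, 3779 and 3628 normalized counts in DMSO and 5372, 5658 and 5073 in P3FI-90. The treated libraries were all above the controls (log2 fold change 0.55, SE 0.043, edgeR adjusted p = 3.36e-08). Aimp2, another scaffold, fell from 2173 ± 56.4 to 1372 ± 16.0 normalized counts (SD, n = 3 each) with a log2 fold change of -0.66, and Eef1e1 from 2024 ± 63.7 to 1577 ± 75.1 with a log2 fold change of -0.36. In the GENCODE M21 annotation 2.91% of the exon length of Aimp1 overlaps Tbck on the other strand, which rose by 1.22 on the log2 scale, and 29.4% of that of Aimp2 overlaps Eif2ak1 (log2 fold change 0.08, not passing the test). Whether reads were counted by strand is not given in the sources used here, so reads from the shared stretches cannot be assigned to a gene.

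Both enzymes that serve cytosol and mitochondria from a single gene fell. Kars1, the lysyl-tRNA synthetase, went from 21994 ± 523 to 14397 ± 462 normalized counts (log2 fold change -0.61) and Gars1, the glycyl-tRNA synthetase, from 11315 ± 65.9 to 7714 ± 192 (SD, n = 3 each; log2 fold change -0.55). Their joint level was 932 to 961 CPM in DMSO and 613 to 650 CPM in P3FI-90.

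Of the 17 mitochondrial enzymes, 10 fell (58.8%), 0 rose and 7 did not pass edgeR's quasi-likelihood test, with a median log2 fold change of -0.39. Of all genes 39.4% fell and 39.9% rose in that test. At an unadjusted p of 0.05 in the same test 1 was higher, and DESeq2 and limma-voom each called 0 higher. With total counts as the scaling 4 were called higher (Mars2, Sars2, Wars2 and Tars2) and 9 lower, beside 50.3% and 29.6% of all genes. Aars2, the alanyl enzyme, had 969, 900 and 957 normalized counts in DMSO and 372, 406 and 461 in P3FI-90. It fell in every treated library (log2 fold change -1.19, SE 0.089, edgeR adjusted p = 1.85e-08), whereas its cytosolic counterpart Aars1 rose. Vars2, the valyl enzyme, had 2073, 1925 and 1890 normalized counts in DMSO and 1002, 1102 and 1147 in P3FI-90 (log2 fold change -0.86, SE 0.062, edgeR adjusted p = 1.34e-08), again with no overlap between the groups.

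In 2 mitochondrial enzymes a single library stood apart. Pars2, the prolyl enzyme, had 456, 335 and 391 normalized counts in DMSO and 246, 35.1 and 204 in P3FI-90, so that library 2 was far below the other treated libraries with a raw count of 39. Its log2 fold change was -1.29 (SE 0.41, edgeR adjusted p = 0.00957), and without that library it was -0.81 (edgeR adjusted p = 0.000366). DESeq2 gave Pars2 an adjusted p of 0.108. Lars2, the leucyl enzyme, had 9098, 4351 and 5407 normalized counts in DMSO and 4582, 4941 and 4868 in P3FI-90, and the groups overlapped. Its log2 fold change of -0.39 did not pass the test (SE 0.18, edgeR adjusted p = 0.0594). Without DMSO library 1, the high one, the log2 fold change of Lars2 was -0.03 (edgeR adjusted p = 0.729), without DMSO library 2 it was -0.60 (adjusted p = 0.0015), and without DMSO library 3 it was -0.49 (adjusted p = 0.0392).

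The remaining decreases in mitochondria were smaller. Cars2 (-0.67), Iars2 (-0.62), Nars2 (-0.53) and Ears2 (-0.52) fell by more than Yars2 (-0.37) and Hars2 (-0.34) in log2 fold change. The enzymes that did not pass the test were Lars2, Sars2 (0.21), Mars2 (0.14), Wars2 (0.12), Tars2 (-0.01), Rars2 (-0.06) and Fars2 (-0.07). In the annotation 22.9% of the exon length of Iars2 overlaps Rab3gap2 on the other strand, which rose by 1.48 on the log2 scale, whereas Iars2 fell.

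Per length of transcript, cytosolic enzymes were expressed well above mitochondrial ones in both groups. In DMSO the level as counts scaled for transcript length and library size (RPKM) had a median of 69.1 over the 19 cytosolic genes, from 8.46 for Tars3 to 169 for Nars1. It had a median of 10.2 over the 17 mitochondrial genes, from 2.09 for Mars2 to 46.0 for Lars2, so that the ranges overlapped. Kars1, a dual enzyme, had the highest level of all at 259 RPKM, and the partners lay between 22.6 and 52.3 RPKM. In P3FI-90 the medians were 62.5 RPKM for the cytosolic and 6.98 RPKM for the mitochondrial genes. Transcript lengths came from the longest annotated transcript, and with the union of exons the DMSO medians were 43.8 and 5.64.

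**Figure D3:**
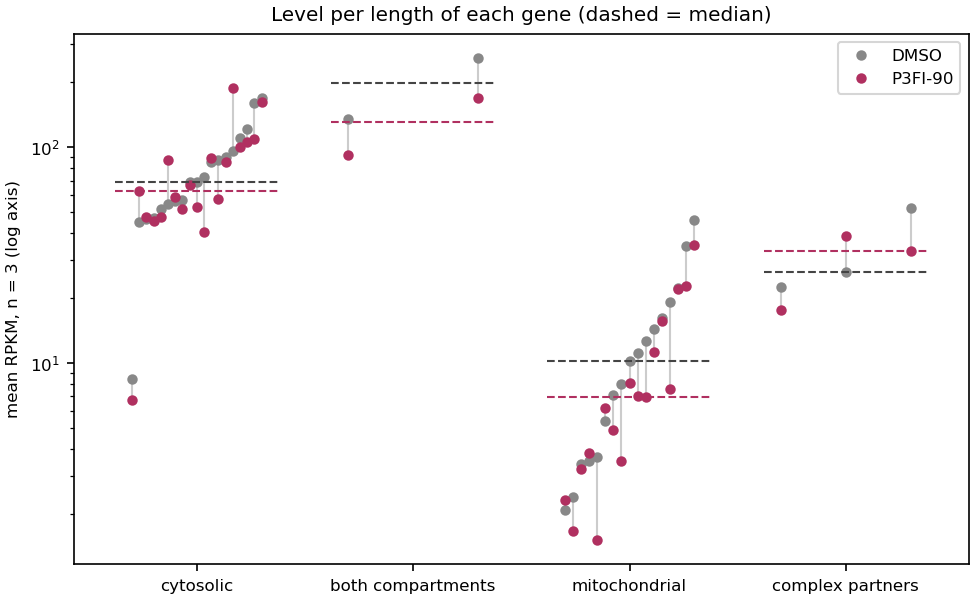
The mean level of each gene in RPKM (log axis, n = 3) in DMSO and in P3FI-90, joined by a line and grouped by compartment, with the median of each group as a dashed line. Mitochondrial enzymes lie mostly below cytosolic ones, with medians of 10.2 and 69.1 in DMSO.

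With TMM scaling the summed level of the cytosolic enzymes was higher with P3FI-90, although more of these genes fell than rose. That of the mitochondrial enzymes was lower. The 19 cytosolic enzymes summed to between 5106 and 5201 CPM in DMSO and between 5271 and 5330 CPM in P3FI-90, whereas the 17 mitochondrial enzymes summed to between 797 and 952 CPM and between 611 and 625 CPM. The cytosolic sum includes Aars1, whose mean was 19321 normalized counts in DMSO and 37943 in P3FI-90. On the CPM scale this rise of Aars1 was larger than the rise of the cytosolic sum. The other cytosolic enzymes thus summed to less with P3FI-90 than in DMSO in TMM scaling. Their sum in each library was not made. With the dual enzymes added, the cytosolic sum was lower with P3FI-90 in TMM scaling (6037 to 6162 CPM in DMSO, 5884.5 to 5980 CPM in P3FI-90). The sums were not made with total counts, which moved the median of all genes up by 0.21 on the log2 scale. The direction of the small differences in the cytosolic sums is thus given for TMM only. The ratio of the cytosolic to the mitochondrial sum, which does not depend on library scaling, was 5.46, 6.41 and 6.16 in the DMSO libraries and 8.67, 8.53 and 8.44 in the P3FI-90 libraries. Leaving out Lars2, the ratio was 7.51, 7.59 and 7.56 in DMSO and 11.03, 11.01 and 10.85 in P3FI-90. The groups were apart with and without Lars2. The median log2 fold change of the cytosolic genes exceeded that of the mitochondrial genes by 0.32, and by 0.32 as well with total counts.

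Since cytosolic and mitochondrial enzymes of the same amino acid can be set against each other within a library, 19 such pairs were compared. The pairs share genes, as Eprs1, Fars2 and Tars2 each stand in 2 of them. The ratio of cytosolic to mitochondrial counts was higher in all P3FI-90 libraries than in all DMSO libraries for 9 pairs and lower for 4, and overlapped for 6, and the median change in the log2 ratio was 0.26. For 3 libraries against 3 the smallest p that an exact two-sided permutation test allows is 0.1, which is the value of all 13 pairs that did not overlap (adjusted p = 0.146 over the 19 pairs). So no pair could pass a threshold of 0.05 by this test.

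Alanine gave the largest change. Aars1 exceeded Aars2 by 20.37, 21.19 and 20.01 times in the DMSO libraries and by 102, 93.7 and 82.1 times in the P3FI-90 libraries. The log2 ratio went from 4.36 ± 0.042 to 6.53 ± 0.16 (SD, n = 3 each), a change of 2.17. Cars1 over Cars2 was 3.991, 4.207 and 4.196 in DMSO and 9.06, 8.45 and 10.0 in P3FI-90, a change of 1.15 in the log2 ratio. Yars1 over Yars2 was 4.10, 4.01 and 3.68 in DMSO and 8.06, 8.15 and 7.98 in P3FI-90, a change of 1.04. In these 3 pairs the cytosolic gene rose and the mitochondrial gene fell.

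In other pairs both genes fell, or only the mitochondrial gene passed the test. Vars1 over Vars2 rose by 0.31 in the log2 ratio, with both genes lower, while Iars1 over Iars2 (0.59), Nars1 over Nars2 (0.48) and Eprs1 over Ears2 (0.58) had a cytosolic gene that did not pass. Eprs1 over Pars2 was 37.3, 50.3 and 42.7 in DMSO and 70.6, 509 and 85.3 in P3FI-90, where the value of 509 came from the library with 39 counts of Pars2.

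In 4 pairs the ratio moved towards the mitochondrial gene. Sars1 over Sars2 was 41.8, 43.2 and 33.9 in DMSO and 33.5, 28.1 and 31.7 in P3FI-90 (change in the log2 ratio -0.35), and Mars1 over Mars2 was 7.28, 7.46 and 7.35 in DMSO and 5.94, 6.08 and 6.30 in P3FI-90 (-0.27). Tars3 over Tars2 changed by -0.32 and Rars1 over Rars2 by -0.14. The pairs that overlapped were Lars1 over Lars2 (0.26, exact p = 0.7), Farsb over Fars2 (0.12), Hars1 over Hars2 (-0.04), Farsa over Fars2 (-0.06), Tars1 over Tars2 (-0.06) and Wars1 over Wars2 (-0.08). Hars1 and Hars2 are neighbours whose exons overlap in the annotation by 7.97% of the exon length of Hars1 and 4.56% of that of Hars2.

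**Figure D4:**
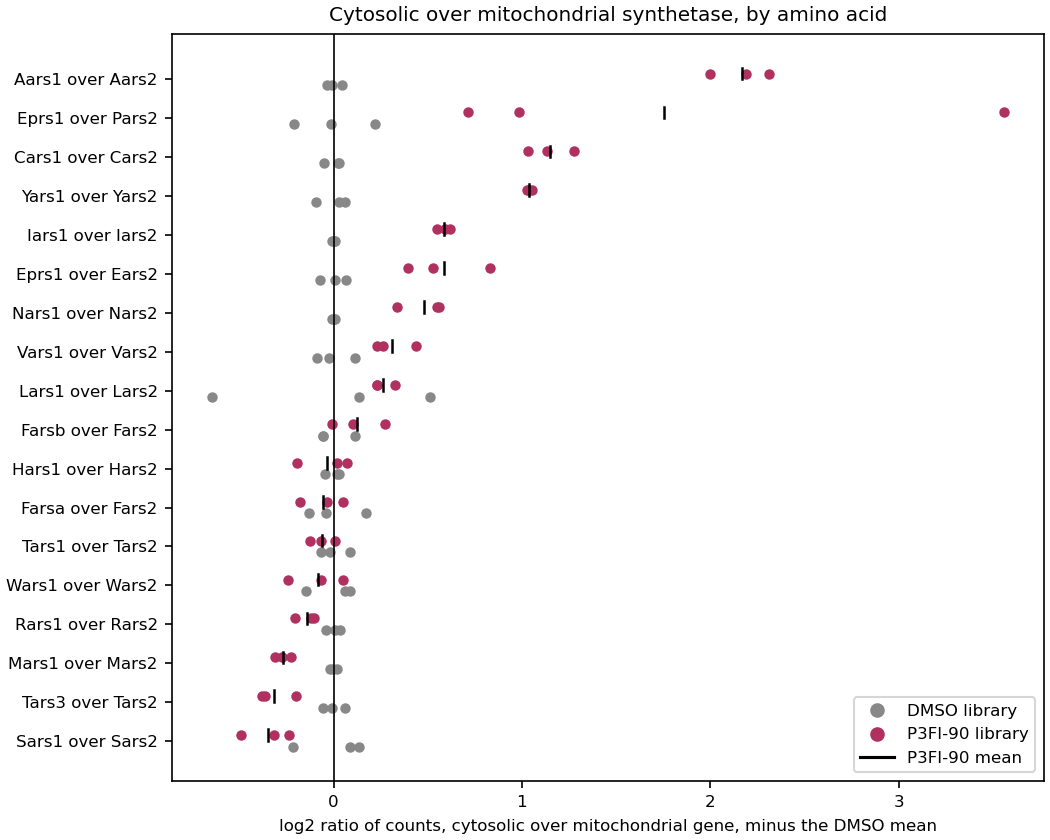
The log2 ratio of cytosolic to mitochondrial counts of 18 of the 19 gene pairs, less the mean of the DMSO libraries, a point per library and a tick for the P3FI-90 mean. Aars1 over Aars2 stands at the top with a change of 2.17 and Sars1 over Sars2 at the bottom with -0.35.

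Of 15 other genes of tRNA charging, 2 rose, 9 fell (60%) and 4 did not pass the test, where 39.9% of all genes rose and 39.4% fell, and the median log2 fold change was -0.42. With total counts 4 were higher and 7 lower, beside 50.3% and 29.6% of all genes. Mitochondria make glutaminyl-tRNA by an amidotransferase instead of a synthetase of their own, and of its subunits Gatb (-0.51) and Gatc (-0.57) fell. Qrsl1, another subunit, had a log2 fold change of 0.25 (edgeR adjusted p = 0.037), a call that was lost without DMSO library 1 (adjusted p = 0.0567), DMSO library 2 (0.123) or P3FI-90 library 1 (0.217) and with upper quartile scaling (0.0736). Trnt1 (-0.45), which adds the CCA end to tRNAs, and Mtfmt (-0.37), which formylates the initiator of mitochondria, fell, the latter not passing with total counts (adjusted p = 0.136). Xpot, which exports tRNAs from the nucleus, was called lower with TMM (log2 fold change -0.09) and higher with total counts (0.12), and its call was lost without DMSO library 3 (adjusted p = 0.057) or P3FI-90 library 2 (0.0596). Aarsd1, which clears alanine tRNAs charged with a wrong amino acid, went from 2292 ± 100 to 953 ± 85.5 normalized counts (SD, n = 3 each). Its log2 fold change was -1.27, in the direction of Aars2 and not of Aars1. Ptrh2 (-1.18), a peptidyl-tRNA hydrolase, and Dtd1 (-0.85), which removes D-amino acids from tRNAs, fell too. Of the enzymes that convert seryl-tRNA to selenocysteinyl-tRNA, Pstk fell (-0.75) and Sepsecs rose (0.76). Prorsd1, Dtd2 and Ptrhd1 were among those that did not pass the test.

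Of 13 regulators of stress signalling and of genes for mitochondria, 6 rose and 6 fell (46.2% each, close to the 39.9% and 39.4% of all genes), with a median log2 fold change of 0.08. Atf4 went from 8090 ± 422 to 11911 ± 279 normalized counts (SD, n = 3 each; log2 fold change 0.56), and Cebpg, a binding partner of ATF4, rose by 0.99 on the log2 scale. Ddit3, the stress-induced factor CHOP, rose from 193 to 3504 normalized counts (log2 fold change 4.18) and Ppp1r15a, which restores translation after stress, by 4.12. The kinases of the translation factor eIF2 differed, with Eif2ak3 (1.39) and Eif2ak2 (0.24) higher, Eif2ak4 (-0.55), the sensor of uncharged tRNA, lower, and Eif2ak1 (0.08) not passing the test. Nrf1 (-0.78), Gabpa (-0.42) and Tfam (-0.66), which act on genes for mitochondria, fell, and so did Cebpb (-0.78) and Myc (-0.45). Ddit3 overlaps Mars1 on the other strand over 68 bases, 1.99% of the exon length of Mars1, and Mars1 fell.

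Of 22 other known targets of ATF4 outside the synthetases, 14 rose (63.6%), 5 fell (22.7%) and 3 did not pass, beside 39.9% and 39.4% of all genes, with a median log2 fold change of 0.26. The 3 with the smallest p were Atf3 (3.64) and Atf5 (2.60), both stress-induced transcription factors, and Psat1 (-1.16), an enzyme of serine synthesis, which fell. Beside them, 3 of 19 cytosolic synthetases rose. The 2 lists were not tested against each other.

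**Figure D5:**
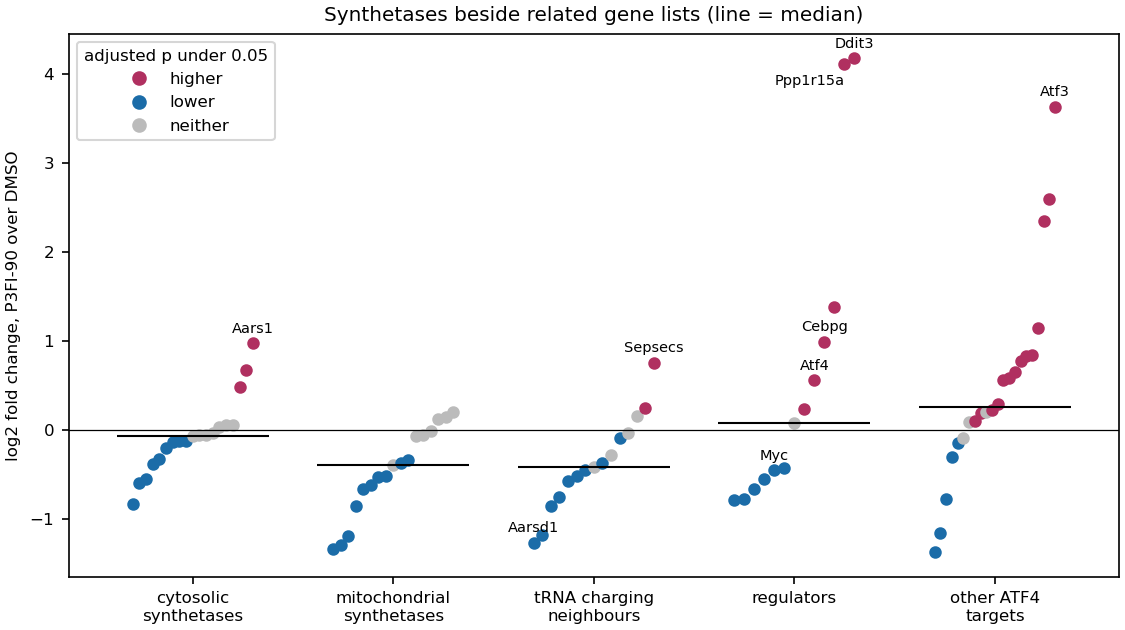
The log2 fold change of each gene (points, coloured by whether it was higher, lower or neither at an adjusted p of 0.05) and the median (line) for cytosolic and mitochondrial synthetases, other genes of tRNA charging, regulators and other ATF4 targets. Medians are -0.07 for cytosolic enzymes, -0.39 for mitochondrial enzymes, -0.42 for other tRNA charging genes and 0.26 for other ATF4 targets.

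Sequence shared with other genes could divide reads for a few members. Counted in windows of 50 bases, the share of transcript windows found in another gene was highest for Aimp2 (26.7%), Iars2 (22.7%) and Aars1 (13.8%). For Aars1 the overlapping neighbour on the same strand, Exosc6, had a raw count of 1 in every library (means of 1.08 normalized counts in DMSO and 0.938 in P3FI-90). How reads from the stretch shared by Exosc6 and Aars1 were assigned is not given in the sources used here.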

How the data were processed

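RNA-seq libraries of 4T1 cells, 3 given DMSO and 3 given 10 µM P3FI-90 for 24 h, were grouped by their labels. The authors deposited raw read counts per gene, without normalization. The submitters' processing notes name CASAVA, HISAT2, StringTie and GRCm39. The counting tool and strandedness are not given in the sources used here. The paper names limma without a transformation. The 285 rows without a gene name (0.483% to 0.556% of the counts of a library) were left out.

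In R 4.3.3, low genes were removed with filterByExpr, and the rest were scaled by TMM and compared with the quasi-likelihood test of edgeR 4.0.16, with Benjamini-Hochberg adjustment over 12288 genes. The common biological coefficient of variation was 0.0648. A normalized count is the count after scaling each library to their mean effective size, and a gene was called at an adjusted p under 0.05. Pair ratios were compared by exact permutation tests. The fit was tested on simulated data in which far fewer genes changed than here, so that test does not check the scaling. Lengths and overlaps came from GENCODE M21 (GRCm38), and promoters from RefSeq (GRCm38.p6), which differ from the submitters' build. Genes with a count of 2 outnumbered those with a count of 1 in each library (311 against 81 in DMSO library 1), and whether both mates of a pair were counted is not given, so precision from depth is not stated as an interval.

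Alternatives were other scalings, filters and tests (DESeq2 1.42.0, limma 3.58.1), a replicate block, halved counts and each library left out, and keeping the unnamed rows, chosen after seeing the data. Members and lists were chosen with earlier results of these data known, compartments and roles from general knowledge. Most members are named. Values in every library are given for the largest changes, up to 5 in each direction among genes that passed the test, and for pairs discussed in detail, and genes of the other lists are named with values or, for ATF4 targets, by the 3 smallest p. Results for some genes and a promoter stretch are not reported here, though the counts and medians over lists include them.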

Additional observations from a re-analysis of the deposited data

How the results depend on the processing

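Scaling by total counts moved the largest number of values. The cytosolic enzymes then had 13 higher, 4 lower and a median log2 fold change of 0.14, the mitochondrial enzymes 4 higher and a median of -0.18, the dual enzymes and partners a median of -0.34, the other tRNA charging genes 4 higher and a median of -0.20, the regulators a median of 0.30, and the other ATF4 targets 3 lower and a median of 0.48. Over all genes 6177 were then higher and 3641 lower, where TMM gave 4908 and 4841. The sign turned for Farsa (0.087), Iars1 (0.18), Lars1 (0.16), Mars1 (0.087), Nars1 (0.16), Rars1 (0.011), Sars1 (0.077), Tars1 (0.14) and Tars2 (0.20), each of which moved up with all genes, and Tars3 and Hars2 lost their calls (adjusted p = 0.192 and 0.161). Rars1 lost its call as well. The sign also turned for Fars2 (0.14) and Rars2 (0.16), which did not pass the test in either scaling. Upper quartile scaling gave medians of -0.11 (cytosolic), -0.43 (mitochondrial), -0.59 (dual and partners), -0.46 with 1 higher (other tRNA charging genes) and 0.043 (regulators). With at least 10 counts in every library the cytosolic median was -0.054, and 1 mitochondrial enzyme was higher, as with DESeq2's size factors. With limma on log2(CPM + 1) the medians were -0.36 (mitochondrial) and -0.34 (other tRNA charging genes). DESeq2 lost the call of Pars2 (adjusted p = 0.108), and the cause was not tested. Leaving out each library in turn gave medians from -0.11 to -0.070 (cytosolic), -0.54 to -0.36 (mitochondrial), -0.47 to -0.36 with 1 to 2 higher (other tRNA charging genes) and 0.039 to 0.16 (regulators), and a cytosolic minus mitochondrial difference of medians from 0.29 to 0.45. The highest differences were 0.45 without DMSO library 2 and 0.40 without DMSO library 3, beside 0.32 with all libraries. Of 697 values for single members under 17 alternatives, 665 were counted as the same, 20 newly passed the threshold, 3 no longer passed and 9 turned. Rars1 with total counts is among the 9, though it no longer passed either. The 665 include values of Fars2 and Rars2 whose sign changed without passing the test.

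Equally numbered libraries did not deviate together (correlations of -0.01, 0.02 and 0.01) and share only a number. With the replicate number as a block, 4802 genes were higher and 4722 lower, and the cytosolic enzymes had 3 higher and 9 lower, the mitochondrial enzymes 0 higher and 10 lower, with a difference of medians of 0.29.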
